A study of Mus musculus with 6 samples.

Results

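Endothelial cells line blood and lymphatic vessels, and 32 genes that mark them or carry their signals were followed in the inguinal white adipose tissue, the subcutaneous fat of the groin, of male mice labelled wild type. The genes were chosen by name among the 57180 of the deposited table, and each matched 1 row. The table held 3 samples of mice given a high-fat diet with 0.5% hesperidin (HEP), a flavonoid of citrus peel, and 3 samples of mice given the high-fat diet alone (HFD), for 12 weeks in both groups. All 6 samples share 1 batch label and a high-fat diet, age and strain are not given in the labels, and the labels do not say that each sample is a separate animal, so the tests below speak for the spread among these 6 samples and no further. The comparison asks how the vessel genes of this fat differ when hesperidin is added to the diet.

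Endothelial cells are held together by VE-cadherin, claudin-5 and PECAM-1 and are kept alive and growing by vascular endothelial growth factors (VEGFs), whose receptors are encoded by Kdr, Flt1 and Flt4. The angiopoietin receptor TIE2, encoded by Tek, and its partner TIE1 keep vessels quiescent. In fat the capillaries lie against each adipocyte and pass it fatty acids freed from lipoproteins, and when cytokines act on a vessel its endothelium displays ICAM-1 and VCAM-1, which white cells grip before they leave the blood.

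Levels are given as TPM, transcripts scaled to a fixed total, a measure per transcript length on which genes can be set beside each other within a library. TPM keeps no read depth, so depth is unknown and no counting interval can be given. Between 22599 and 25271 genes per library had a value above 0. Of the 32 genes 31 had at least 1 TPM in every library, which is also the set that passed the minimum of a mean of 1 TPM over the 6 samples and was tested among 15446 genes. Prox1 did not pass. The fat itself was plain in each library: Adipoq, which encodes the fat cell hormone adiponectin, had 2393, 3926 and 2151 TPM in HEP replicates 1 to 3 and 3473, 4211 and 2891 TPM in HFD replicates 1 to 3.

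The libraries did not hold the same cells. All 8 B cell markers had a higher mean in HEP, and their summed level was 1101, 6.89 and 1183 TPM in HEP replicates 1 to 3, against 6.02, 6.68 and 544 TPM in HFD replicates 1 to 3. All 8 T cell markers also had a higher mean in HEP, and they summed to 552, 18 and 599 TPM in HEP, against 13.3, 24.7 and 416 TPM in HFD. HEP replicates 1 and 3 and HFD replicate 3 are called the lymphocyte-rich libraries here, a description taken from these values and not a group of the study. Glycam1, the mucin of the high endothelial venules through which lymphocytes enter a lymph node, had 119.8 TPM, was listed at 0 and had 195 TPM in HEP replicates 1 to 3, and was listed at 0, at 0 and at 132 TPM in HFD replicates 1 to 3. Chst4, a sulfotransferase of the same venules, was listed at 0 in the same 3 libraries. The 7 genes of that venule and node stroma list summed to 19.4 to 558 TPM in HEP and 10.9 to 425 TPM in HFD, and all 6 tested had a higher mean in HEP. HEP replicate 2 stood apart in another way, with 13121 TPM summed over 10 skeletal muscle markers, against 1493 and 60.0 TPM in HEP replicates 1 and 3 and 88.3 to 631 TPM in HFD. Liver markers summed to 12.5 to 2625 TPM in HEP and 58.5 to 1722 TPM in HFD, highest in HEP replicate 2 and HFD replicate 1. In bulk tissue, fewer cells of a type and less RNA per cell cannot be told apart.

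No endothelial gene passed the test between the diets. With limma on log2(TPM + 1), 0 of the 31 genes had an adjusted p under 0.05, as did 0.0% of the 15446 genes tested in either direction, and the smallest adjusted p among the 31 was 0.879. Before adjustment 0 of the 31 were under 0.05 too, against 0.68% of all genes tested that were higher and 1.13% that were lower. The direction was uneven: 25 of the 31 had a lower mean log2 value in HEP, a direction that 41.4% of all genes tested had, and 6 had a higher one, as 58.6% did. With quantile scaling 26 of the 31 and 57.6% of all genes tested were lower. The median log2 fold change of the 31 was -0.24, where that of all genes tested was 0.07. It was -0.13 without HFD replicate 2 and also -0.13 without HEP replicate 3, and it ranged from -0.31 to -0.13 over the 6 fits that each left out 1 library. Without the 3 lymphocyte-rich libraries it was -0.14 and the median of all genes tested was -0.08, so the gap was narrower there. In that fit 22 of the 31 were lower, against 62.8% of all genes tested. Its HEP arm is HEP replicate 2 alone, the library with the highest sum of skeletal muscle markers. Without the other 3 libraries, which leaves HFD replicate 3 alone in its group, the 2 medians were -0.20 and 0.11. With the B cell markers as a covariate they were -0.14 and -0.01. For 8 of the 31, or 25.8%, every HEP value lay below every HFD value, against 3.58% of all genes tested, and for 0 of the 31 every HEP value lay above, against 1.88%. With median-of-ratios scaling between libraries the 8 became 5, against 3.08% of all genes tested. The 31 genes are markers of the same cells in the same 6 libraries, so they are not 31 separate observations.

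**Figure D1:**
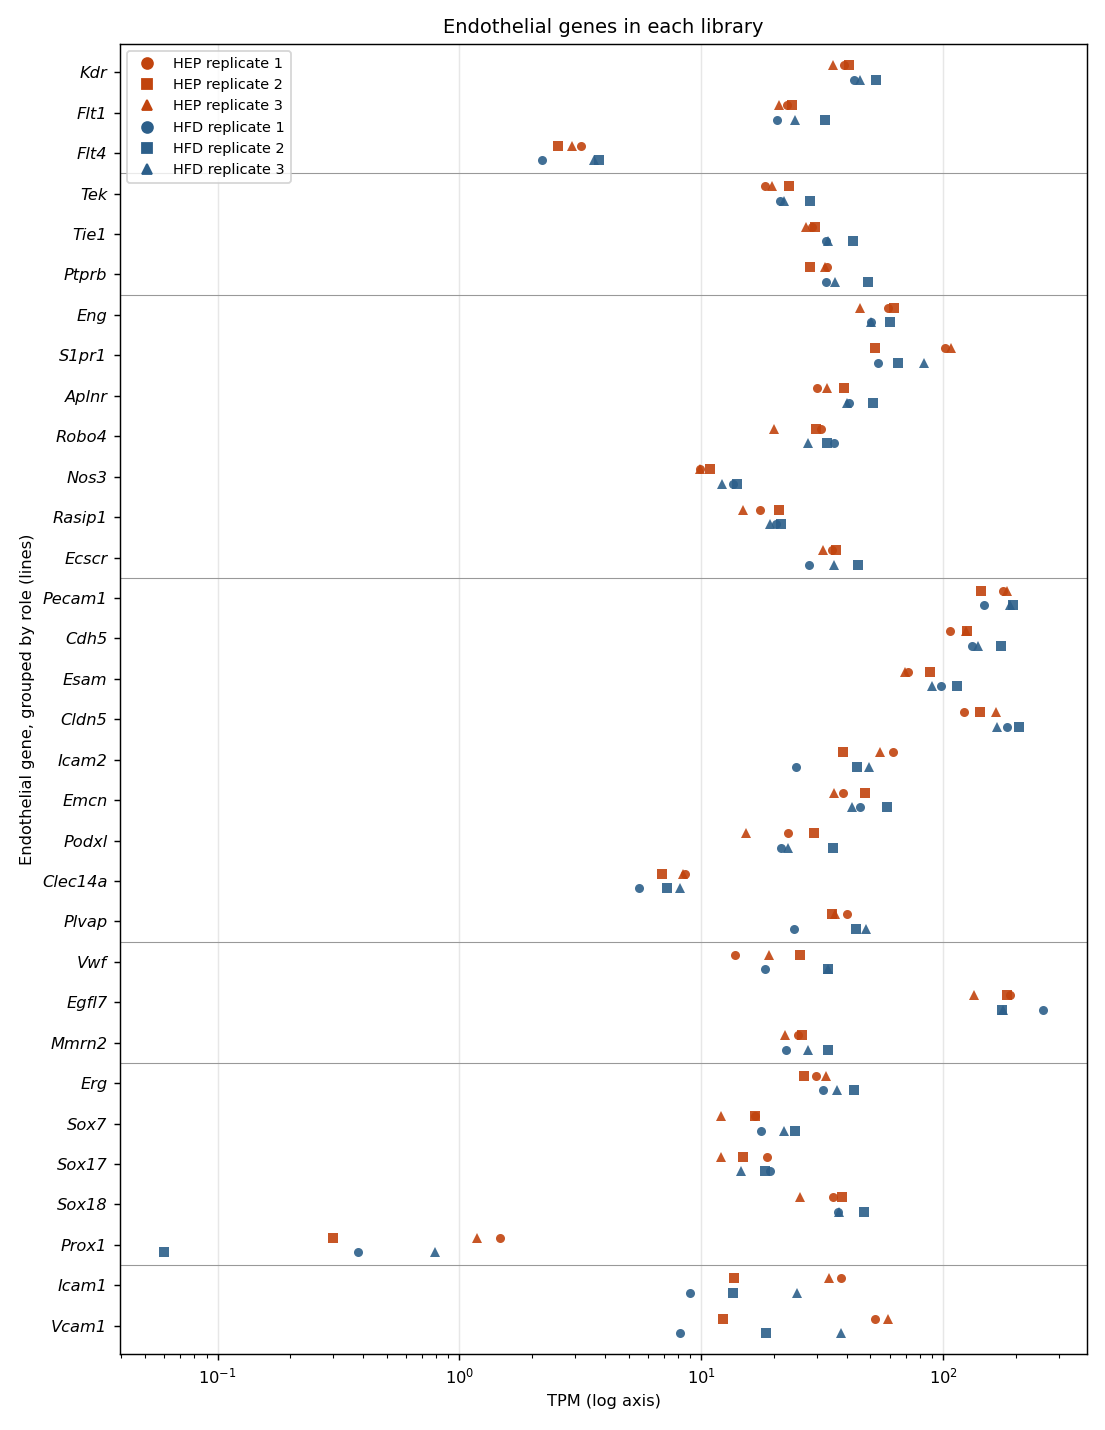
TPM on a log axis of the 32 endothelial genes, 1 row a gene, with HEP libraries (orange, upper) and HFD libraries (blue, lower) drawn as single points and lines between the roles. The HEP points lie left of the HFD points for Kdr, Tie1, Aplnr, Nos3, Cdh5, Esam, Cldn5 and Sox7, and Prox1, Icam1 and Vcam1 are the most scattered.

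Summed over the 32 genes, the level was 1498, 1413 and 1446 TPM in HEP replicates 1 to 3 and 1501, 1782 and 1598 TPM in HFD replicates 1 to 3. The groups did not overlap, but HEP replicate 1 and HFD replicate 1 all but met. Means were 1452 ± 42.8 TPM in HEP and 1627 ± 143 TPM in HFD (SD, n = 3 each). The exact permutation test, two-sided, gave p = 0.1, the smallest that 3 samples against 3 can give. Without HFD replicate 2, in which 21 of the 32 genes had their highest value, the difference of -175 TPM became -97.3 TPM. Fat cell genes were also lower in HEP on average, all 8 adipocyte markers having a lower mean. They summed to 6992, 10406 and 5928 TPM in HEP replicates 1 to 3 and 10411, 12032 and 8593 TPM in HFD replicates 1 to 3. For each 100 TPM of those markers there were 21.4, 13.6 and 24.4 TPM of the endothelial genes in HEP replicates 1 to 3 and 14.4, 14.8 and 18.6 TPM in HFD replicates 1 to 3. These ratios overlapped (two-sided exact permutation p = 0.4). The highest 3 were those of the lymphocyte-rich libraries, which also had the 3 lowest adipocyte sums. The part of lymphocyte or fat cell content in the difference of the sums was not tested.

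The 3 VEGF receptor genes all had a lower mean in HEP, with a median log2 fold change of -0.18. Kdr, the main signalling receptor for VEGF-A on blood vessels, had 38.8, 40.8 and 34.9 TPM in HEP and 42.8, 52.65 and 45.2 TPM in HFD. Each HEP value was thus below each HFD value, and the log2 fold change of -0.29 ± 0.15 (SE) had an adjusted limma p of 0.879. Flt1, which binds VEGF-A tightly and can hold it back from Kdr, had 22.5, 23.7 and 21.0 TPM in HEP and 20.6, 32.6 and 24.3 TPM in HFD. Flt1 overlapped, with HFD replicates 1 and 2 at the extremes. Flt4, the receptor of lymphatic vessels for VEGF-C and VEGF-D, was far scarcer, at 2.89 ± 0.317 TPM in HEP and 3.19 ± 0.866 TPM in HFD (SD, n = 3 each), and also overlapped. Its log2 fold change of -0.09 had a 95% interval from -0.71 to 0.53.

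The TIE receptors and the phosphatase that restrains them also had lower means in HEP, with a median log2 fold change of -0.30. Tie1 had 28.6, 29.5 and 27.1 TPM in HEP and 32.9, 42.3 and 33.35 TPM in HFD, with no overlap and a log2 fold change of -0.33 ± 0.15 (SE; adjusted p = 0.879 in limma). Tek had 18.2, 23.1 and 19.6 TPM in HEP and 21.2, 28.1 and 22.0 TPM in HFD, and Ptprb, the vascular endothelial protein tyrosine phosphatase, had 32.9, 28.3 and 32.6 TPM in HEP and 32.8, 48.8 and 35.7 TPM in HFD. Both overlapped. In all 3 genes HFD replicate 2 was the highest library.

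Ligands of these receptors were read beside them. Of 14 ligand genes 9 were tested, all 9 had a lower mean in HEP (41.4% of all genes tested did), 0 passed, and the median log2 fold change was -0.37. Vegfd, a ligand of Flt4 in mice, had 8.18, 10.9 and 6.28 TPM in HEP and 15.15, 13.1 and 12.5 TPM in HFD, without overlap, and a log2 fold change of -0.65 ± 0.23 (SE; unadjusted p = 0.0281 and adjusted p = 0.879 in limma). Vegfb, which binds Flt1, had 51.7 ± 18.2 TPM in HEP and 67.9 ± 6.52 TPM in HFD, and Pgf, placental growth factor, another Flt1 ligand, had 5.06 ± 0.74 TPM in HEP and 6.85 ± 0.983 TPM in HFD (SD, n = 3 each). Vegfa, the best known of the family, spread widely within both groups, with 140.1, 105 and 42.3 TPM in HEP and 168, 79.4 and 71.0 TPM in HFD. Angpt1, the activating ligand of Tek, had 8.45, 8.46 and 6.32 TPM in HEP and 10.5, 8.34 and 6.97 TPM in HFD. Angpt2, which can oppose it, had 4.17, 4.80 and 5.35 TPM in HEP and 5.16, 8.49 and 6.51 TPM in HFD.

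Neither gene of the apelin pair overlapped between the diets. Aplnr, the receptor on veins and capillaries, had 30.1, 38.7 and 33.1 TPM in HEP and 40.7, 51.4 and 40.1 TPM in HFD, with a log2 fold change of -0.36 ± 0.17 (SE). Apln, its ligand, made by fat cells and by sprouting endothelium, had 11.2, 10.55 and 9.28 TPM in HEP and 13.85, 14.75 and 13.9 TPM in HFD, with a log2 fold change of -0.42 ± 0.16 (SE) and a limma p of 0.0353 before adjustment. Both had an adjusted limma p of 0.879.

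**Figure D2:**
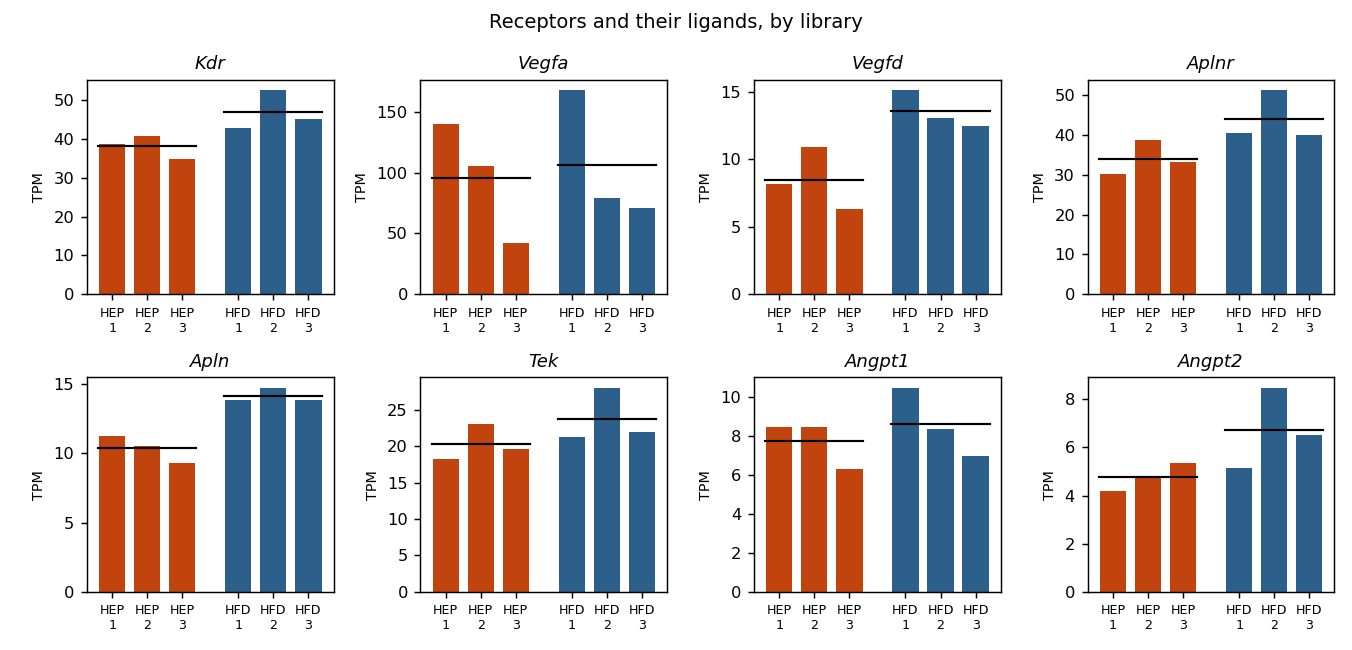
TPM in each library of the receptors Kdr, Aplnr and Tek and the ligands Vegfa, Vegfd, Apln, Angpt1 and Angpt2, with HEP bars (orange) left of HFD bars (blue) and a black line at each group's mean. Every HEP bar of Kdr, Aplnr, Apln and Vegfd is below every HFD bar, while the other 4 panels overlap.

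Promoter sequences are shown for 3 genes whose groups did not overlap (Kdr, Tie1 and Cldn5) and for Icam1, a cytokine-induced gene that ran differently, so that the sequences can be set side by side. They are the 250 bases before the start of the gene in RefSeq on build GRCm38.p6, 5′ to 3′ on the gene's strand, at chr5:75978456-75978705 (minus strand), chr4:118489850-118490099 (minus strand), chr16:18776597-18776846 (plus strand) and chr9:21015690-21015939 (plus strand). For Kdr, Tie1 and Cldn5 a stretch just after the start was found in a GENCODE release M21 transcript of the gene. For Icam1 it was not found, so the Icam1 start rests on RefSeq alone. Capitals mark the core letters of ETS factor sites, GGAA on either strand (TTCC on the printed one), and in Icam1 also a match to the NF-kappaB letters GGAATTTCC, which on the printed strand reads GGAAATTCC and overlaps 2 of the ETS cores.
Kdr: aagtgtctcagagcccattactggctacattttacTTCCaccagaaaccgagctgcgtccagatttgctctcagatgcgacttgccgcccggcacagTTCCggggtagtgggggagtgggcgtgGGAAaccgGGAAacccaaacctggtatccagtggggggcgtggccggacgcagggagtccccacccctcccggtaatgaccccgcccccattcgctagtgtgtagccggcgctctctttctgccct
Tie1: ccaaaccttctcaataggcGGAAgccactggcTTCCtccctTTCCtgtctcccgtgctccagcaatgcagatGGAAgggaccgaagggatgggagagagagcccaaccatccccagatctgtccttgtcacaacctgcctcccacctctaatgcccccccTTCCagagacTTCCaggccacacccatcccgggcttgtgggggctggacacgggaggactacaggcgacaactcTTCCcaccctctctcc
Cldn5: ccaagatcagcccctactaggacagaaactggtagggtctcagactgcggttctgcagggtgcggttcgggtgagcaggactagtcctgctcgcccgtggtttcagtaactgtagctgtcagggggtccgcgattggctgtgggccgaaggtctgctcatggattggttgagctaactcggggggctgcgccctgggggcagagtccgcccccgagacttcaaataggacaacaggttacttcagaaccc
Icam1: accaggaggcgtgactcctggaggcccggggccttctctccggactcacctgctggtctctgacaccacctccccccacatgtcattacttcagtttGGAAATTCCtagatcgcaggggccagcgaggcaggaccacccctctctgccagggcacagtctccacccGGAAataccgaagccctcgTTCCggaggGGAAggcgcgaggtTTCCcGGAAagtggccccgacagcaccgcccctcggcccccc

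Of the 32 genes 15 had a promoter in the RefSeq table, and 14 of these had a GGAA core. That core is common: 93.4% of 32851 mouse promoter windows of the same length hold it on one strand or the other, with a median of 3 matches. Kdr had 4 matches, Tie1 and Icam1 had 7 each and Cldn5 had 0. The 9 letters of the NF-kappaB match were in 1 of the 15, Icam1, where they begin 153 bases before the RefSeq start. Of the windows 0.286% hold them. Only this exact form was searched for, and other forms of the NF-kappaB site were not counted. The count is thus no comparison of NF-kappaB sites among the genes. These matches describe letters and show no binding.

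Of 9 junction and surface genes 7 had a lower mean in HEP, with a median log2 fold change of -0.24, and they held most of the abundant genes. Only Egfl7, Pecam1, Cldn5 and Cdh5 averaged over 100 TPM across the 6 libraries among the 32. Cdh5, which encodes VE-cadherin, had 107, 126 and 124 TPM in HEP and 132, 174 and 139.6 TPM in HFD, without overlap, and a log2 fold change of -0.31 ± 0.16 (SE). Cldn5, the tight junction protein claudin-5, had 122, 142 and 166 TPM in HEP and 184, 205 and 167 TPM in HFD. Cldn5 did not overlap either, but HEP replicate 3 and HFD replicate 3 nearly met at 165.87 and 166.87 TPM. Esam, an adhesion molecule of the junction, had 71.6, 88.4 and 69.75 TPM in HEP and 97.8, 114 and 89.8 TPM in HFD, a log2 fold change of -0.39 ± 0.16 (SE). Its limma p before adjustment, 0.0509, was the smallest of the 31 genes, and its adjusted p was 0.879.

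Pecam1, which is also carried by platelets and white cells, did not run with Cdh5. It had 176, 143 and 184 TPM in HEP and 148, 195 and 189 TPM in HFD, with a log2 fold change of -0.08 and a 95% interval from -0.50 to 0.35. Within a library the ratio of Pecam1 to Cdh5 was 1.65, 1.14 and 1.49 in HEP replicates 1 to 3 and 1.12, 1.12 and 1.35 in HFD replicates 1 to 3, highest in the lymphocyte-rich libraries. Of 5 platelet markers 3 were tested, 2 with a lower mean in HEP and 1, Itga2b, with a higher one. The 5 summed to 34.1 to 91.5 TPM in HEP and 70.0 to 115 TPM in HFD. Most of each sum was Pf4 alone, at 40.15, 85.9 and 27.8 TPM in HEP and 87.0, 112 and 63.7 TPM in HFD. The part of lymphocytes or platelets in the Pecam1 level was not tested.

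Surface proteins of the vessel wall overlapped between the diets. Emcn, the endomucin of veins and capillaries, had 40.4 ± 6.21 TPM in HEP and 48.5 ± 8.77 TPM in HFD, and Podxl, the podocalyxin of the luminal face, had 22.4 ± 6.89 TPM in HEP and 26.4 ± 7.44 TPM in HFD (SD, n = 3 each). Plvap, which forms the diaphragms of fenestrae and caveolae, had 39.9, 34.75 and 35.8 TPM in HEP and 24.2, 43.4 and 47.9 TPM in HFD. Its log2 fold change of -0.01 had a 95% interval from -0.66 to 0.65, which does not exclude differences of that size in either direction. Clec14a, a lectin of growing vessels, had 8.56, 6.91 and 8.43 TPM in HEP and 5.54, 7.22 and 8.20 TPM in HFD, and its ligand in the matrix, Mmrn2, had 24.5 ± 1.95 TPM in HEP and 27.8 ± 5.44 TPM in HFD (SD, n = 3 each).

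Of 7 other receptors and signalling genes 5 had a lower mean in HEP, with a median log2 fold change of -0.19. Nos3 makes the endothelial nitric oxide synthase that relaxes vessels. It had 9.89, 10.9 and 9.90 TPM in HEP and 13.6, 14.1 and 12.2 TPM in HFD, without overlap. The log2 fold change of -0.35 ± 0.16 (SE) had an adjusted limma p of 0.879. Eng, the coreceptor for BMP ligands mutated in hereditary haemorrhagic telangiectasia in humans, had 59.3, 62.9 and 45.4 TPM in HEP and 50.5, 60.2 and 50.2 TPM in HFD. Its log2 fold change was 0.05, and -0.01 and -0.02 with median-of-ratios and quantile scaling, so it has no settled direction. Robo4, a guidance receptor that stabilises vessels, had 31.3, 29.7 and 20.0 TPM in HEP and 35.4, 33.1 and 27.5 TPM in HFD. Rasip1, a RAS-binding protein needed to open the lumen, had 17.7 ± 3.03 TPM in HEP and 20.3 ± 1.03 TPM in HFD, and Ecscr, which regulates endothelial migration, had 34.1 ± 2.12 TPM in HEP and 36.0 ± 8.35 TPM in HFD (SD, n = 3 each).

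The 3 genes for secreted and matrix proteins, Mmrn2 among them, had a lower mean in HEP and a median log2 fold change of -0.26. Vwf, the von Willebrand factor that captures platelets, had 13.8, 25.7 and 19.0 TPM in HEP and 18.4, 33.32 and 33.28 TPM in HFD, which overlapped and gave a log2 fold change of -0.51 ± 0.32 (SE), the lowest of the 31. Without the lymphocyte-rich libraries its log2 fold change was 0.05, and without the other 3 it was -0.99. Egfl7, a matrix factor of vessel sprouts and the host gene of miR-126, was the most abundant of the 32, with 189.8, 183 and 134 TPM in HEP and 259.8, 176 and 176 TPM in HFD. Its exons share 64 bases with Agpat2 on the opposite strand in GENCODE release M21, a gene at 152 to 275 TPM here, and whether the authors' counting used strand is not given, so some reads may have been shared.

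**Figure D3:**
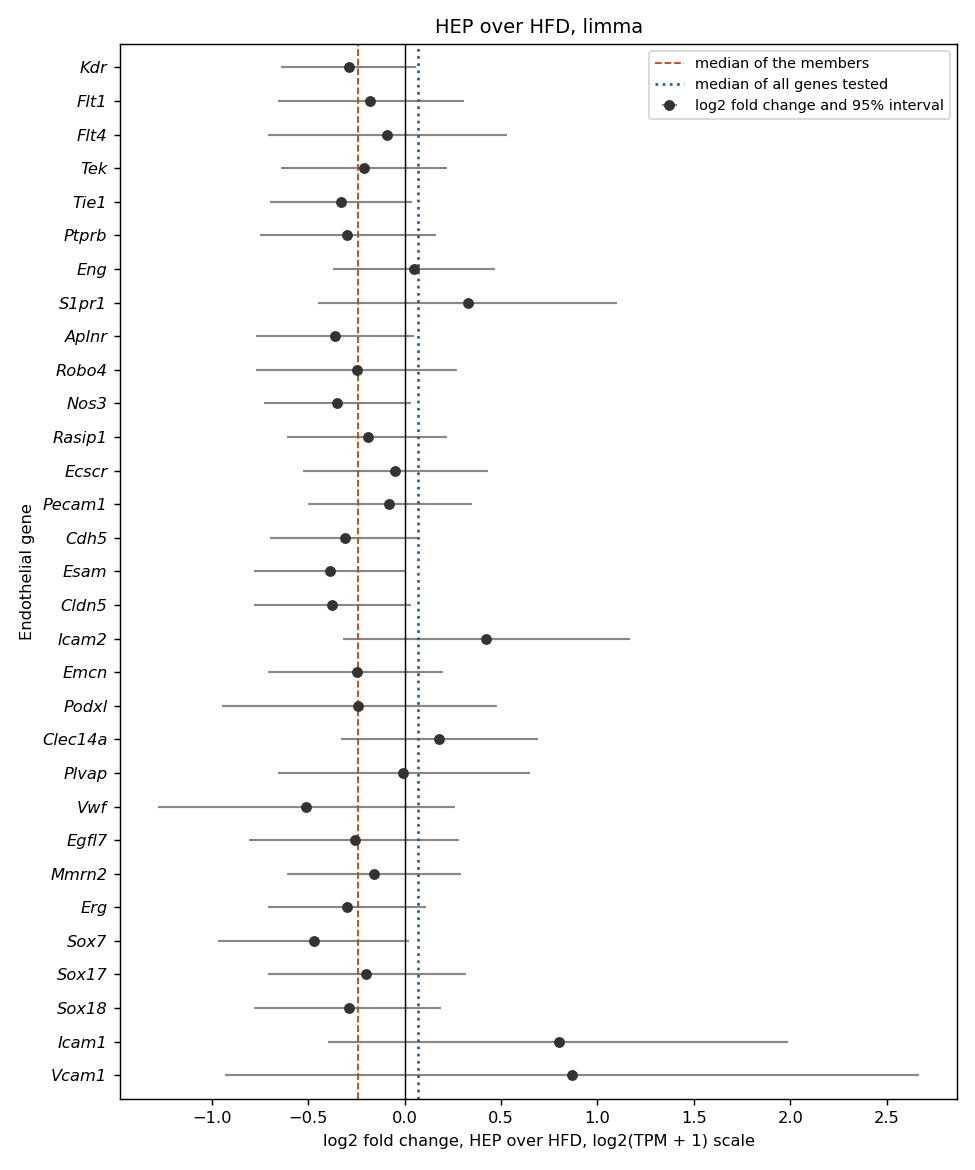
Limma log2 fold change of HEP over HFD with its 95% interval for the 31 endothelial genes tested. The dashed line marks their median of -0.24 and the dotted line the median of all genes tested, 0.07. Each of the 31 intervals includes 0 as rounded, and those of Vcam1 and Icam1 are the widest.

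The 4 transcription factors tested all had a lower mean in HEP, with a median log2 fold change of -0.30. Sox7, a member with Sox17 and Sox18 of the SOXF family that sets arterial and lymphatic fate, had 16.7, 16.6 and 12.0 TPM in HEP and 17.7, 24.3 and 22.0 TPM in HFD, without overlap, and a log2 fold change of -0.47 ± 0.20 (SE; adjusted p = 0.879 in limma). Sox18 had 35.1, 38.1 and 25.65 TPM in HEP and 36.8, 46.9 and 37.3 TPM in HFD, and Sox17 had 18.6, 14.9 and 12.1 TPM in HEP and 19.3, 18.3 and 14.6 TPM in HFD. Both overlapped, and all 3 SOXF genes were lowest in HEP replicate 3. Erg, the ETS factor that keeps endothelial genes on, had 29.9, 26.7 and 32.9 TPM in HEP and 31.7, 42.9 and 36.3 TPM in HFD, and also overlapped.

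Prox1, the master regulator of lymphatic identity, was near the floor of the table. It had 1.47, 0.30 and 1.18 TPM in HEP and 0.38, 0.06 and 0.79 TPM in HFD, with a mean of 0.697 TPM over the 6 libraries, and was not tested. Its 3 highest values were those of the lymphocyte-rich libraries. Mmrn1, another lymphatic gene, was highest in the same 3, at 1.86, 0.18 and 1.60 TPM in HEP and 0.26, 0.13 and 1.27 TPM in HFD. Ccl21a, the chemokine that lymphatic and lymph node stromal cells make to draw lymphocytes, had 695 TPM, was listed at 0 and had 670.1 TPM in HEP replicates 1 to 3, and had 0.87, 0.28 and 519 TPM in HFD replicates 1 to 3. Lyve1, the hyaluronan receptor of lymphatic vessels and of some macrophages, had 12.1, 5.70 and 11.5 TPM in HEP and 8.02, 8.14 and 8.48 TPM in HFD. Reln had 2.76 ± 0.859 TPM in HEP and 3.22 ± 0.0451 TPM in HFD, and Itga9, the integrin of lymphatic valves, had 3.26 ± 1.16 TPM in HEP and 2.70 ± 0.791 TPM in HFD (SD, n = 3 each). The list of other lymphatic genes holds 8 genes, without Prox1, and 6 of them were tested. Not all of the 8 ran with Mmrn1. Ccl21a and Lyve1 also had their 3 highest values in the lymphocyte-rich libraries, but Ackr2 had its 3 lowest there. Pdpn, Foxc2, Reln and Itga9 did neither. Of the 6 tested, 3 had a higher and 3 a lower mean in HEP, and 0 passed. Their median log2 fold change was 0.03, -0.01 with median-of-ratios scaling and -0.16 with quantile scaling.

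Among the 31 tested genes the widest spread lay in those for white cell adhesion. Vcam1 had 52.2, 12.2 and 59.0 TPM in HEP and 8.13, 18.5 and 37.7 TPM in HFD. Its log2 fold change of 0.87 ± 0.75 (SE) was the highest of the 31, with a 95% interval from -0.93 to 2.67. It was 0.34 without HFD replicate 1, 1.57 without HEP replicate 2, and between these with any other library left out. Icam1 had 37.9, 13.6 and 33.7 TPM in HEP and 8.98, 13.6 and 24.95 TPM in HFD, a log2 fold change of 0.80 ± 0.49 (SE), which was 0.47 without HFD replicate 1 and 1.24 without HEP replicate 2. Both genes overlapped between the diets, and in both the highest 3 values were those of the lymphocyte-rich libraries. The same held for S1pr1, the receptor for sphingosine-1-phosphate on endothelium and on lymphocytes leaving lymphoid tissue, which had 102, 52.4 and 108 TPM in HEP and 53.7, 65.0 and 83.0 TPM in HFD. It held too for Icam2, which endothelium and white cells both carry, at 61.9, 38.7 and 55.0 TPM in HEP and 24.7, 43.9 and 49.3 TPM in HFD.

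With Clec14a, these made 5 of the 31 tested genes, or 16.1%, whose 3 highest values were those of the lymphocyte-rich libraries, which 30.5% of all genes tested showed. They were also 5 of the 6 genes with a higher mean in HEP, Eng being the other. Since HEP replicates 1 and 3 are among those libraries, a gene picked for that pattern tends to have a higher HEP mean. Measured against Cdh5 in the same library, Vcam1 stood at 0.488, 0.0974 and 0.475 in HEP replicates 1 to 3 and at 0.0616, 0.106 and 0.27 in HFD replicates 1 to 3. With the B cell markers' mean as a covariate the log2 fold change was 0.08 for Vcam1, 0.27 for Icam1, 0.17 for Icam2, 0.05 for Clec14a and -0.00 for S1pr1. That mean, on the log2 scale, was 6.8, 0.79 and 6.84 in HEP replicates 1 to 3. In HFD replicates 1 to 3 it was 0.744, 0.782 and 5.73. The covariate thus splits the libraries as the pattern of these 5 genes does. Genes picked for that pattern tend to move toward 0 in such a fit by the choice alone. The part of lymphocytes, venules or other white cells in these levels was not tested. Macrophage markers, 7 of 10 with a lower mean in HEP, summed to 875 to 1639 TPM in HEP and 638 to 1550 TPM in HFD. The largest part of each sum was Lyz2, which had a higher mean in HEP. It had 1177, 477 and 1199 TPM in HEP and 291, 879 and 795 TPM in HFD. Another fit left out the 3 lymphocyte-rich libraries and kept HEP replicate 2 against HFD replicates 1 and 2. Its log2 fold change was -0.01 for Vcam1, 0.28 for Icam1, 0.22 for Icam2, 0.11 for Clec14a and -0.17 for S1pr1. The HEP arm of that fit is 1 library, assumed to vary like the others. The fit drops the libraries whose high values set the pattern, so smaller differences come partly from the choice of genes there too.

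Other gene lists of blood vessels had mostly lower means in HEP and no gene past the threshold. The shares to read them against are the 41.4% of all genes tested that had a lower mean and the 3.58% whose HEP values were all below their HFD values. Of 17 arterial, venous and Notch genes all 17 were tested and were lower on average, the median log2 fold change being -0.19, and in 3 of them every HEP value was below every HFD value. Those were Jag1, a Notch ligand, at 16.7 ± 3.12 TPM in HEP and 22.9 ± 3.58 TPM in HFD, Hey1, a Notch target, at 5.63 ± 0.408 TPM in HEP and 7.76 ± 1.22 TPM in HFD, and Gja5, the arterial connexin 40, at 6.56 ± 0.287 TPM in HEP and 10.6 ± 3.73 TPM in HFD (SD, n = 3 each). Selp, the P-selectin of venules and platelets, had 4.13 ± 0.401 TPM in HEP and 6.70 ± 1.95 TPM in HFD (SD, n = 3 each) and overlapped.

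Of 12 capillary genes of fat all 12 had a lower mean, with a median of -0.27, and all overlapped. Gpihbp1, which holds lipoprotein lipase on the capillary wall, had 325, 428 and 315 TPM in HEP and 401, 526 and 378 TPM in HFD. Rgcc had 283 ± 139 TPM in HEP and 367 ± 63.9 TPM in HFD, Aqp1, a water channel, 262 ± 19.9 TPM in HEP and 321 ± 68.3 TPM in HFD, and Btnl9 39.8 ± 5.56 TPM in HEP and 50.7 ± 6.80 TPM in HFD (SD, n = 3 each). Fabp4 and Cd36 on this list are also fat cell genes. Without the lymphocyte-rich libraries the median of this list was -0.00.

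Of 16 other endothelial genes 13 had a lower mean and 3 a higher one, with a median of -0.21. The 3 were Ets1, Fli1 and Calcrl. In each the 3 highest values were those of the lymphocyte-rich libraries, a pattern that 30.5% of all genes tested showed. Adgrf5, an adhesion receptor, had 103, 95.9 and 100.3 TPM in HEP and 115, 147 and 111 TPM in HFD, the 1 gene of this list without overlap. Rhoj, a small GTPase of vessel growth, had 22.7 ± 3.61 TPM in HEP and 32.3 ± 5.86 TPM in HFD (SD, n = 3 each), and a limma p of 0.0466 before and 0.879 after adjustment. Myct1 had 15.3 ± 3.25 TPM in HEP and 19.8 ± 2.78 TPM in HFD, and Bcl6b 16.5 ± 2.04 TPM in HEP and 20.0 ± 2.46 TPM in HFD (SD, n = 3 each). Pericyte and smooth muscle markers, the cells around the vessel, had a lower mean in 9 of 12, with a median of -0.20. Their sums were 732 to 1119 TPM in HEP and 815 to 1157 TPM in HFD. The highest HEP sum was that of HEP replicate 2, the library with the highest sum of skeletal muscle markers. Des on this list had 154 TPM there and 13.59 to 31.55 TPM in the other libraries.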

How the data were processed

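RNA of 3 HEP and 3 HFD samples was sequenced, and the authors deposited 1 table of TPM per gene, whose group means were not used. Per the labels' protocols, RNA came from TRIzol and libraries from a TruSeq RNA kit. The tools were fastp, HISAT2, RSEM, DESeq2 and StringTie, per the submitters' processing notes, whose versions and order, like the build and annotation, the sources used here do not give. TPM divides by the library's total, so abundant RNA from other cells lowers all other genes.

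Samples were grouped by title. The test between diets was that of limma 3.58.1 in R 4.3.3, with the trend option, on log2(TPM + 1) for the 15446 genes averaging 1 TPM or more, two-sided, Benjamini-Hochberg adjusted, threshold 0.05. Fold changes are on that log2 scale, which understates changes of low genes, and errors are limma's. The fit was tested on simulated data. Groups do not overlap where the 3 values of one are all below those of the other. The endothelial genes, the other gene lists and the alternatives were chosen with earlier results of these data known. All 32 endothelial genes are named, and of each other vessel list the 4 genes with the smallest p. Vegfa, Angpt1, Angpt2, Mmrn1, Ackr2, Pdpn, Foxc2, Ets1, Fli1 and Calcrl were named after their values were seen. Alternatives were a pseudocount of 0.1, no filter, median-of-ratios and quantile scaling, a replicate block, a B cell covariate, and leaving out libraries. Exonic overlaps of genes came from GENCODE release M21. No coordinates of the files were used.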

Additional observations from a re-analysis of the deposited data

How the results depend on the processing

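Under each alternative that left more than 1 library in each group, 0 of the endothelial genes passed in limma. The median log2 fold change of the 31 genes stayed below 0 under every alternative. It was -0.25 with a pseudocount of 0.1, -0.29 with median-of-ratios and -0.34 with quantile scaling. With no filter it was -0.24, or -0.22 with Prox1, which then enters, counted too. It was -0.14 with the B cell covariate, -0.14 without the lymphocyte-rich libraries and -0.20 without the other 3. Over the same alternatives the ligands' median lay between -0.52 (quantile scaling) and -0.14 (without the lymphocyte-rich libraries), that of the arterial, venous and Notch genes between -0.38 (quantile scaling) and -0.15 (without HFD replicate 2), that of the capillary genes between -0.37 (without HEP replicate 2) and -0.00 (without the lymphocyte-rich libraries), and that of the other endothelial genes between -0.28 (without HFD replicate 3) and -0.06 (without the other 3). Single libraries moved these by over 1.5 times for the arterial, venous and Notch genes (-0.34 without HFD replicate 1), the capillary genes (-0.13 without HFD replicate 2, -0.17 without HEP replicate 3) and the other endothelial genes (-0.09 without HEP replicate 3, -0.11 without HFD replicate 2). For the 31 endothelial genes, leaving out 1 library gave medians of -0.31 to -0.13, 22 to 26 genes lower in HEP, and summed TPM differences of -238 to -97.3. The median of all genes tested moved by over 0.1 with quantile scaling, to -0.061, and without the lymphocyte-rich libraries, to -0.083, against 0.071 as reported. Genes with every HEP value below every HFD value numbered 5 of 31 with median-of-ratios scaling (3.08% of all genes tested) and 7 with quantile scaling (5.89%). They numbered 8 to 16 with 1 library left out, 16 without HFD replicate 1 (7.43%) and 12 without HEP replicate 2 (15.6%). They were 14 of 31, or 45.2%, without the lymphocyte-rich libraries, near the 38.7% of all genes tested, and 22, or 71.0%, without the other 3, against 24.2%. Fewer libraries make this easier to meet. The replicate numbers were not taken to pair the samples. Deviations of same-numbered samples correlated at -0.355, 0.368 and 0.651, which does not settle whether they are paired. With the replicate block the median was -0.24 and 0 genes passed.

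Directions turned for Eng (-0.01 with median-of-ratios, -0.02 with quantile scaling) and for Itga9 (-0.02 with quantile scaling). With the covariate S1pr1 had -0.00, Ccl21a -1.01 and Lyve1 -0.07, and the other lymphatic genes a median of -0.03. That median was -0.01 with median-of-ratios scaling, -0.16 with quantile scaling and -0.13 without the lymphocyte-rich libraries. Without those libraries S1pr1 had -0.17, Rasip1 0.01, Ecscr 0.03, Podxl 0.09, Plvap 0.10, Vwf 0.05, Vcam1 -0.01, Vegfb 0.03, Rgcc 0.12, Ccl21a -0.63, Reln 0.16, Itga9 -0.28 and Lyve1 -0.44. Without the other 3 Sox17 had 0.04 and Bcl6b 0.01. Leaving out 1 library gave ranges across 0 for the median of the other lymphatic genes (-0.04 to 0.14), Flt4 (-0.27 to 0.02), Ecscr (-0.22 to 0.11), Plvap (-0.30 to 0.17), Eng (-0.04 to 0.19), Lyve1 (-0.01 to 0.48) and Pecam1 (-0.20 to 0.03). The cause of these turns was not tested. Depth is unknown.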
